A study of Mus musculus with 3 samples.

Results

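The integrins, selectins and leukocyte adhesion molecules described here are 31 genes, taken by symbol from the 32285 genes listed in the count matrices, and each of the 31 symbols was found once. They comprise 14 integrin alpha subunits, 7 integrin beta subunits, 3 immunoglobulin-type ligands (Icam1, Icam2 and Vcam1), 2 selectins with the ligand Selplg, and 4 molecules of cell junctions (Pecam1, F11r, Jam2 and Jam3). The genes were picked by family, at a time when earlier results of these data were known. They were measured in single cells from the quadriceps of wildtype C57BL/6 mice, an inbred strain. A piece of the muscle had been cut out (volumetric muscle loss, VML) and polycaprolactone particles (PCL, a polyester) were put in its place; muscle and fibrotic implant were harvested as 1 sample at 6 weeks. There was 1 group with 3 libraries (replicates 1, 2 and 3) and no uninjured, implant-free or earlier group, so every comparison is between classes of cells within the same libraries. Dead cells had been removed, and cells with and without the leukocyte antigen CD45 had been parted on magnetic beads and mixed in equal numbers, so the shares of the classes depend on that mixing.

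Integrins are pairs of an alpha and a beta chain that hold cells to matrix or to other cells. The alpha chain largely sets the ligand: alpha 1, 2, 10 and 11 bind collagens with beta 1, alpha 3, 6 and 7 bind laminins, and the alpha chains encoded by Itgal, Itgam and Itgax pair with the leukocyte beta chain encoded by Itgb2. Leukocytes leave the blood in steps: P- and E-selectin on activated endothelium catch glycans on carriers such as PSGL-1 (Selplg), leukocyte integrins then bind ICAM-1, ICAM-2 and VCAM-1, and PECAM-1 and the junctional adhesion molecules act in the passage between endothelial cells.

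The matrices held 19707 cell barcodes and 136519688, 192348779 and 104482261 unique molecular identifiers (UMIs, 1 for each captured RNA molecule) in replicates 1, 2 and 3. After filters and removal of called doublets, 17950 cells remained, 5652, 7693 and 4605 per library, and 10 to 13 barcodes were shared by any 2 libraries. Cells were clustered without the 31 genes and without the other adhesion genes listed below, and clusters were named from marker lists, with names ending in "-like". The 12 classes with at least 20 cells in every library ranged from 94 cells (cDC2-like) to 9904 cells (fibroblast-like), and 16 clusters with 935 cells stayed unnamed. Fibroblast-like cells made up 40.4%, 71.5% and 46.0% of the named and unnamed cells of the 3 libraries. Some classes held clusters with genes of other cells: 246 blood endothelial-like cells had a median of 1278 UMIs and led with fibroblast genes, and the class called T- and NK-like carried macrophage and neutrophil transcripts, as described below.

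Levels are counts per 1000000 UMIs (CPM) of the sum over a class in 1 library, given as mean ± SD over the 3 libraries or, where 3 values follow each other, in the order of replicates 1, 2 and 3. Since a UMI stands for a molecule caught at its 3′ end, these levels are not divided by transcript length. Differences are log2 values from edgeR's quasi-likelihood test on the summed counts with the library as a block. A gene was called where the Benjamini-Hochberg adjusted p over all genes tested was under 0.05 and the log2 difference was at least 1 in size. The labels do not say whether the libraries came from separate animals, and the p-values then measure only the spread between these 3 libraries. The genes that drew the classes came from the same cells, so a p-value tells how steady a difference was over the libraries. In sums over many cells, fewer expressing cells and less RNA per cell cannot be told apart.

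Itgam and Itgax neighbour each other. Itgam was highest in neutrophil-like and next in macrophage-like cells, and Itgax was highest in macrophage-like and next in neutrophil-like cells. Sele and Selp also neighbour each other and were high in the same endothelial-like cells. The upstream sequences of these 4 members are shown here. They are the 250 bases before the annotated start in RefSeq's table for GRCm38.p6, all on the plus strand, and capitals mark GAGGAA or its reverse complement, the core bound by PU.1-type factors of myeloid cells. The windows are chr7:128062390-128062639 for Itgam, chr7:128129300-128129549 for Itgax, chr1:164047984-164048233 for Sele and chr1:164115014-164115263 for Selp.
Itgam: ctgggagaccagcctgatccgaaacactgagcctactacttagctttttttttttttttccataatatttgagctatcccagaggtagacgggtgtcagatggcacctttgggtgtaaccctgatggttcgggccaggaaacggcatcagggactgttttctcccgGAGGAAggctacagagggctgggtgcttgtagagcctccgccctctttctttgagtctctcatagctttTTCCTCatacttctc
Itgax: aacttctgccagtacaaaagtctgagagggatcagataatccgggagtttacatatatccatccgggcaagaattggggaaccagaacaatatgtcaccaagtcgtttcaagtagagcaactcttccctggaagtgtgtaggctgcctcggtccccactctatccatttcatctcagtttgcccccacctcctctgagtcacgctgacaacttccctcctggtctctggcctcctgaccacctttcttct
Sele: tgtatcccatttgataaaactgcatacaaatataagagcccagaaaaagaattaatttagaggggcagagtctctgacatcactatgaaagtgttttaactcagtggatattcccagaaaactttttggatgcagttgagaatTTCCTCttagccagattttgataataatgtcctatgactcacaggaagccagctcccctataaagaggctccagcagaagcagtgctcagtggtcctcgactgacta
Selp: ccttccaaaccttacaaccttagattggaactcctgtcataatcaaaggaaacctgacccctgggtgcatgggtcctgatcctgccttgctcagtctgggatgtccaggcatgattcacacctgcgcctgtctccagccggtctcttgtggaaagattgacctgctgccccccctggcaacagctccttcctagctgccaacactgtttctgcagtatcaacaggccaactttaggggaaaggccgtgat

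The Itgam window held 2 matches, beginning at positions -84 and -15 from the start, the Sele window held 1 at -107, and the Itgax and Selp windows held none. Of all 32851 windows of this length, 23.25% held such a match, so its presence in a single window is common. A fixed string for a kappa B-type stretch, searched on both strands, was in 1.41% of all windows. It was in none of the 21 windows that covered 19 of the 31 members, and Vcam1 had no window. Other spellings of a kappa B site were not searched. The absence of this string therefore does not tell whether the windows of Icam1, Sele or other members lack such a site. A match is a run of letters and not a measured site of binding.

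Each member had a class where its mean level was highest, and for 22 of the 31 the libraries of that class lay above all libraries of the next class. Blood endothelial-like cells were highest for 9 members, mural-like cells (the pericytes and smooth muscle of vessels) for 7, neutrophil-like cells for 4 and macrophage-like cells for 3. Type 1 conventional dendritic cell-like (cDC1-like) cells and tenocyte-like cells, the fibroblasts of tendon, were highest for 2 each. Lymphatic endothelial-like, fibroblast-like, T- and NK-like and muscle fibre-like cells were highest for 1 each. The 9 members whose top class overlapped the next were Itga2b, Itga5, Itga8, Itga10, Itgb4, Itgb5, Itgb6, Itgb8 and Selplg. The top class of 3 members depended on scaling, since after TMM scaling Itgb2 was highest in neutrophil-like cells, Itgb5 in fibroblast-like cells and Itga10 in tenocyte-like cells.

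**Figure D1:**
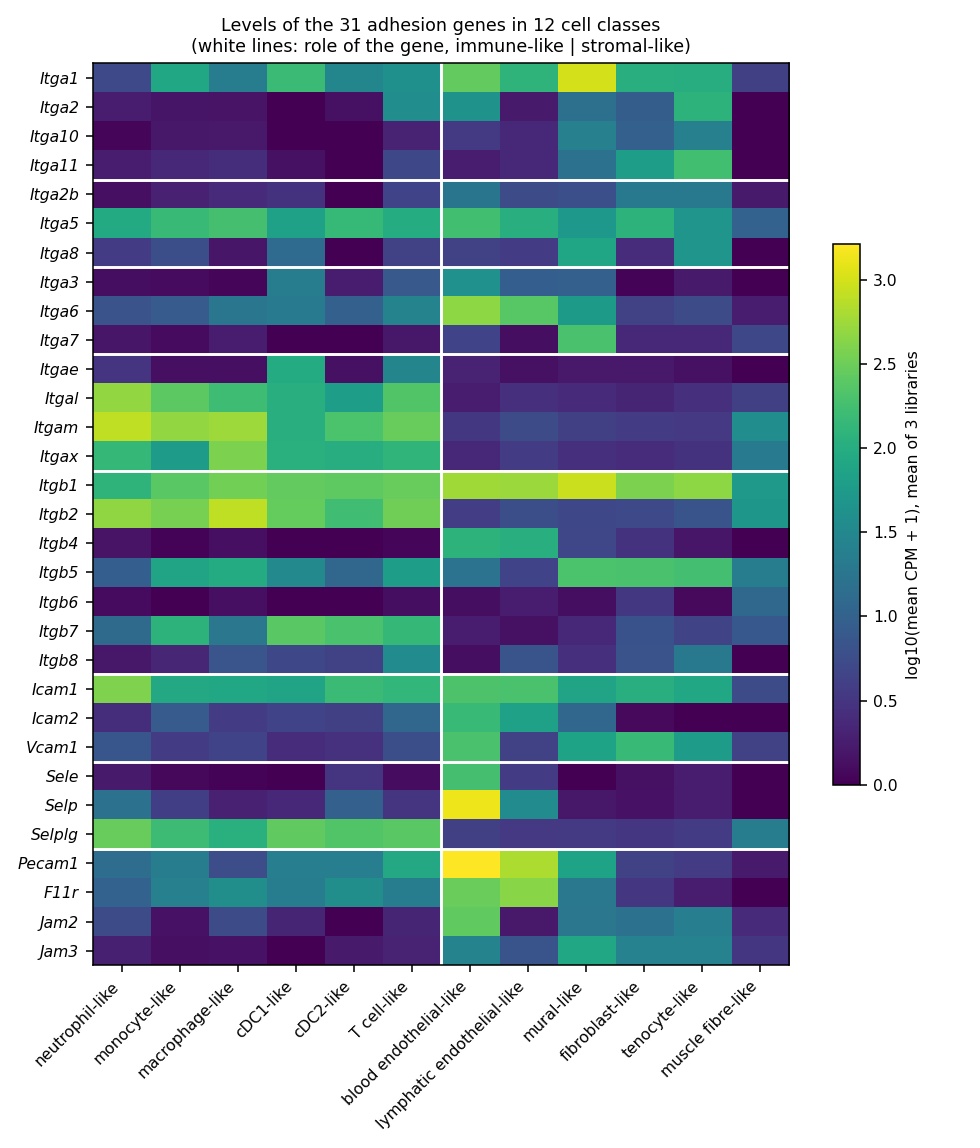
Mean level of each of the 31 genes (rows, grouped by role) in 12 cell classes (columns, immune-like left of stromal-like), as log10 of the mean CPM of 3 libraries plus 1. The leukocyte integrins and Selplg fill the immune-like columns, the selectins, Pecam1 and Icam2 the endothelial-like ones, and Itga1, Itga7 and Itgb1 peak in the mural-like column.

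Among the collagen receptors, Itga1 reached 1018 ± 72.2 CPM in mural-like cells, followed by 274 ± 78.0 CPM in blood endothelial-like, 155 ± 27.6 CPM in cDC1-like and 121 ± 5.46 CPM in lymphatic endothelial-like cells. The mural-like libraries lay above those of every other class, and the blood endothelial-like and cDC1-like libraries overlapped. Fibroblast-like cells had 102 ± 10.2 CPM and macrophage-like cells 21.2 ± 3.64 CPM of it. Itga11 was highest in tenocyte-like and fibroblast-like cells, at 172 ± 31.8 and 59.7 ± 5.05 CPM, against 15.4 ± 5.96 CPM in mural-like cells. In fibroblast-like cells its mean was below that of Itga1. Itga2 was at 118 ± 73.5 CPM in tenocyte-like and 42.7 ± 1.74 CPM in blood endothelial-like cells. Itga10 was at 24.4 ± 4.52 CPM in mural-like, 24.1 ± 12.1 CPM in tenocyte-like and 8.58 ± 0.412 CPM in fibroblast-like cells.

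Among the laminin receptors, Itga6 was at 466 ± 59.9 CPM in blood endothelial-like and 240 ± 26.0 CPM in lymphatic endothelial-like cells, and at 54.8 ± 19.7 CPM or less elsewhere. Itga7, the laminin receptor of muscle, was at 194 ± 31.4 CPM in mural-like cells and at only 3.97 CPM in muscle fibre-like cells, whose median was 1546 UMIs per cell. Itga3 peaked at 41.7 ± 6.72 CPM in blood endothelial-like cells. The fibronectin receptor Itga5 was spread widely, from 182 ± 13 CPM in macrophage-like and 171 ± 16.3 CPM in blood endothelial-like to 46.1 CPM in tenocyte-like and 9.12 CPM in muscle fibre-like cells. Itga8, which binds nephronectin, was at 78.3 ± 24.5 CPM in mural-like and 45.8 ± 25.9 CPM in tenocyte-like cells, with overlapping libraries. Itga2b, the alpha chain known from platelets, had 19.1 ± 0.263 CPM in fibroblast-like, 19.1 ± 4.79 CPM in tenocyte-like and 17 ± 0.513 CPM in blood endothelial-like cells.

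The leukocyte alpha chains separated the immune-like classes from each other. Itgam (CD11b) was at 803 ± 61.3 CPM in neutrophil-like, 558 ± 50.6 CPM in macrophage-like and 490 ± 57.6 CPM in monocyte-like cells. Itgal (CD11a) had 490 ± 19.8 CPM in neutrophil-like and 253 ± 24.7 CPM in monocyte-like cells. Itgax (CD11c), often used as a dendritic cell marker, was highest in macrophage-like cells at 378 ± 14.9 CPM, with 110 ± 27.5 CPM in cDC1-like and 101 ± 6.80 CPM in cDC2-like cells. Itgae (CD103), which binds E-cadherin with beta 7, was at 93.1 ± 34.2 CPM in cDC1-like and 27.6 ± 5.28 CPM in T- and NK-like cells and at 2.09 CPM or less in every other class.

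Of the beta chains, Itgb1, the partner of most matrix receptors, was detected in all 12 classes, from 895 ± 39.6 CPM in mural-like to 52.7 CPM in muscle fibre-like cells. Itgb2 was at 802 ± 42.0 CPM in macrophage-like cells and at 4.06 ± 1.55 CPM in fibroblast-like cells. Itgb7 was led by the dendritic classes, with 246 ± 30 CPM in cDC1-like and 193 ± 14.4 CPM in cDC2-like cells. Itgb5, a vitronectin receptor chain, had 201 ± 4.76 CPM in mural-like, 196 ± 5.12 CPM in fibroblast-like and 94.8 ± 10.6 CPM in macrophage-like cells. Itgb4, which pairs with alpha 6, was at 118 ± 20.1 CPM in blood endothelial-like and 104 ± 10.2 CPM in lymphatic endothelial-like cells. The chains that free TGF-beta from its latent form were low in these 12 classes. Itgb6 reached 11.3 ± 8.76 CPM in muscle fibre-like cells and Itgb8 34.9 ± 19.7 CPM in T- and NK-like cells, both with wide spread. Itgb8 was higher in the few Schwann cell-like cells given at the end.

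Expressed as a share of the UMIs of the 14 alpha genes, Itgam held 52.2% ± 3.19 in neutrophil-like, 46.7% in monocyte-like and 42.1% ± 1.55 in macrophage-like cells. In cDC1-like cells no alpha chain held more than 22.6%, the share of Itga1, with Itgax, Itgal and Itgam at 15.9%, 15.1% and 14.9%. Itga1 held 69.2% ± 0.919 in mural-like cells, and Itga6 45.4% ± 0.102 in blood endothelial-like and 48.5% in lymphatic endothelial-like cells. In fibroblast-like cells the share was split between Itga5 (35.9% ± 3.54), Itga1 (31.1%) and Itga11 (18.3%). Of the 7 beta genes' UMIs, Itgb2 held 76.9% in neutrophil-like, 63.6% in macrophage-like and 26.2% in cDC2-like cells, where Itgb1 (41.0%) and Itgb7 (30.7%) exceeded it in the mean. In replicate 1 Itgb2 was above Itgb7 in cDC2-like cells.

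The share of cells with at least 1 UMI of a member was compared after each cell was thinned to 2000 UMIs, with shallower cells left out (60 of 952 neutrophil-like, 143 of 2786 macrophage-like, 224 of 852 blood endothelial-like and 96 of 9904 fibroblast-like cells). Itgam was found in 70.2% ± 0.966 of thinned neutrophil-like and 62.4% ± 3.95 of thinned macrophage-like cells, and in 87.7% and 92.3% of them before thinning, so the order of these classes turned with depth. In fibroblast-like cells, a class outside the leukocytes, the share was 0.627% thinned and 7.29% unthinned, at a median of 26530 UMIs per cell. Selp was found in 47.6% ± 4.74 of thinned blood endothelial-like cells (51.0% unthinned, median 8466 UMIs) and in 0.137% of thinned fibroblast-like cells (1.06% unthinned). Close to even numbers of blood endothelial-like cells thus had and lacked a Selp UMI. Itga1 was found in 72.1% ± 6.07 of thinned mural-like cells (91.7% unthinned, median 14770 UMIs), against 11.2% ± 0.369 of thinned fibroblast-like cells (43.1% unthinned) and 0.335% of thinned neutrophil-like cells (1.42% unthinned, median 5107 UMIs).

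The 5144 immune-like cells carried the leukocyte integrins and PSGL-1, and the 11871 stromal-like cells carried the collagen receptor Itga11, the ligand Vcam1, the selectins and the junctional molecules Jam2, Jam3 and Pecam1. Tested together as classes, immune-like cells had 7 of the 31 members called higher and 15 called lower, where 19.9% of all genes tested were called higher and 29.7% lower (49.6% in either direction). The median log2 difference was -0.94 over the members and -0.13 over all genes tested. Itgam had 557, 501 and 456 CPM in immune-like cells, against 4.60, 1.56 and 2.68 CPM in stromal-like cells, a log2 difference of 7.58 ± 0.30 (SE, adjusted p = 2.9e-06). Itgax had 281, 239 and 308 CPM in immune-like cells and 2.48, 0.700 and 2.01 CPM in stromal-like cells (log2 7.50, adjusted p = 4.1e-06). Itgal had 195, 207 and 178 CPM in immune-like cells and 1.5, 0.873 and 1.21 CPM in stromal-like cells (log2 7.41, adjusted p = 7.2e-07). For these chains every immune-like library stood far above every stromal-like one. Their partner Itgb2 had 656, 601 and 635 CPM in immune-like cells and 5.87, 2.28 and 5.31 CPM in stromal-like cells (log2 7.28, adjusted p = 2.9e-06). Selplg (log2 6.1), Itgb7 (3.50) and Itgae (3.23) completed the members called higher.

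In the other direction, the largest differences were in a junctional molecule, a selectin, an integrin ligand and a collagen receptor. Jam3 had 0.439, 0.638 and 0.573 CPM in immune-like cells, against 27.2, 25.1 and 27.7 CPM in stromal-like cells (log2 -5.62, adjusted p = 6.6e-07). Sele, E-selectin, had 0.110, 0.510 and 0.0409 CPM in immune-like cells and 9.55, 5.90 and 5.01 CPM in stromal-like cells (log2 -5.29, adjusted p = 0.00011). Its immune-like values were the least even, and the log2 difference was -4.53 without replicate 1 and -6.43 without replicate 2. Vcam1 had 3.40, 4.08 and 4.25 CPM in immune-like cells and 134, 153 and 139 CPM in stromal-like cells (log2 -5.14, adjusted p = 5.1e-07). Itga11 had 1.62, 1.85 and 1.59 CPM in immune-like cells and 61.1, 53.3 and 56.2 CPM in stromal-like cells (log2 -5.06, adjusted p = 5.1e-07). The remaining 11 members called lower were Itgb4, Selp, Itga10, Itga7, Itga2b, Itgb6, Jam2, Pecam1, Itga1, Itga2 and Itgb5, with log2 differences between -4.79 and -1.25.

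Icam1, the ligand of the Itgb2 integrins, was on both sides: 113, 122 and 101 CPM in immune-like cells and 110, 124 and 94.5 CPM in stromal-like cells (log2 0.07, adjusted p = 0.44). The sums are ruled by the most abundant classes, macrophage-like and fibroblast-like cells. F11r was the member whose sign turned with this: its log2 difference was 0.75 in the sums and -2.27 (adjusted p = 9.0e-05) when every class had the same weight, where blood and lymphatic endothelial-like cells, rich in F11r, count for more.

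**Figure D2:**
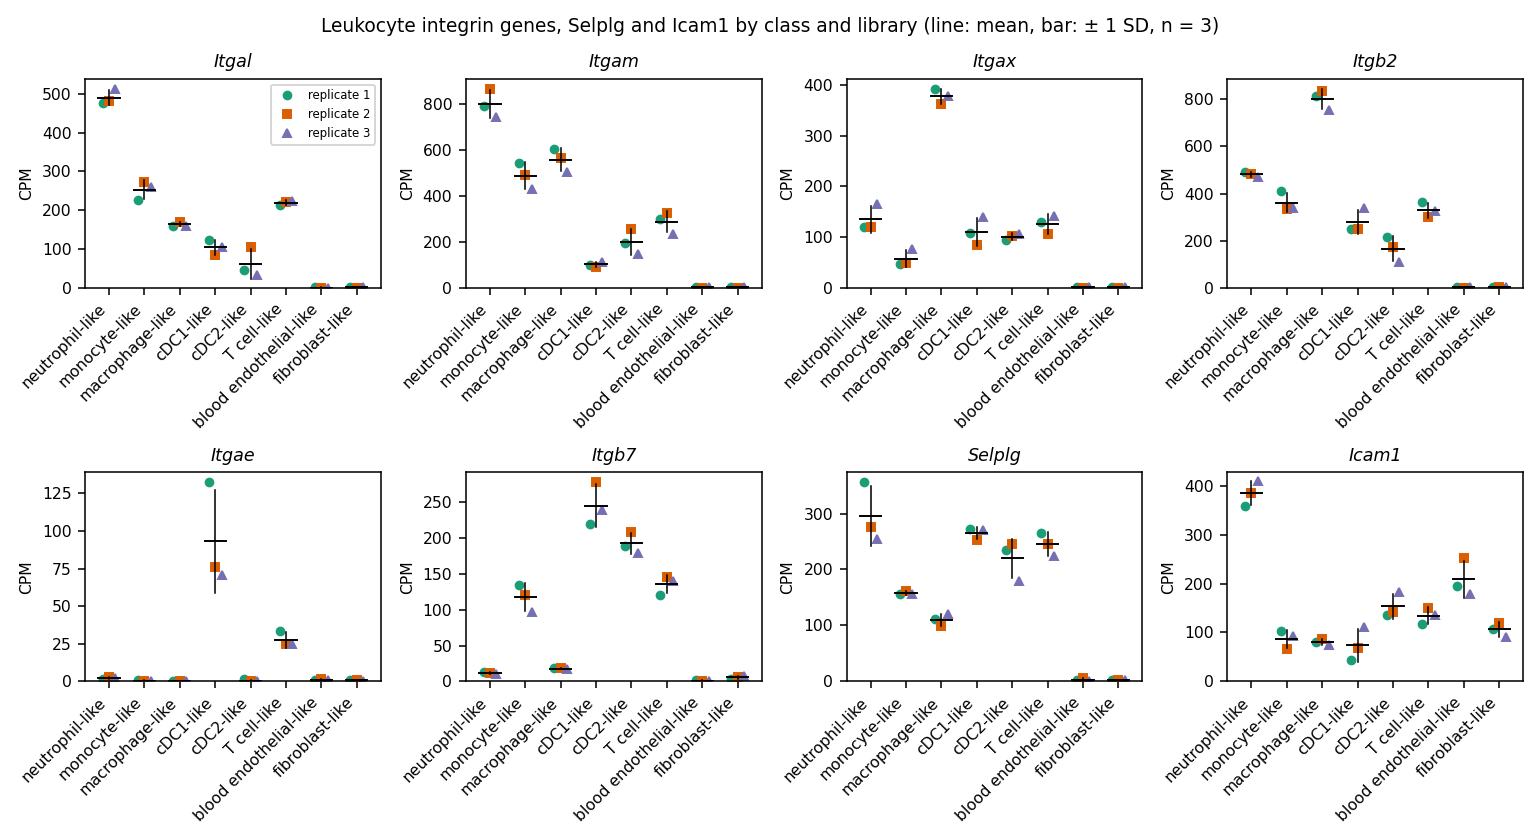
Level in CPM (vertical axis, linear from 0) of 8 members in 6 immune-like classes and, at the right, blood endothelial-like and fibroblast-like cells; points are the 3 libraries, bars the mean and error bars the SD, cut at 0. Itgam and Itgal are highest in neutrophil-like cells (803 and 490 CPM), Itgax in macrophage-like cells (378 CPM), and Itgae in cDC1-like cells (93.1 CPM).

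Blood endothelial-like cells, the lining of blood vessels, had more of the selectins and of the ligand Icam2 than fibroblast-like cells. The junctional molecules Pecam1, F11r and Jam2 and the laminin receptor chains Itga3, Itga6 and Itgb4 were higher as well. The collagen receptor Itga11 and the chains Itgb5 and Itgb8 were lower. Of the 31 members, 11 were higher and 6 lower, and among all genes tested 13.0% were higher and 20.1% lower (33.1% in either direction). The members' median log2 difference was 0.36 and that of all genes -0.11. Selp, P-selectin, had 1258, 1594 and 1250 CPM in blood endothelial-like cells, against 0.454, 0.628 and 0.196 CPM in fibroblast-like cells (log2 11.43 ± 0.26 SE, adjusted p = 5.1e-08). Icam2 had 134, 152 and 156 CPM in blood endothelial-like cells and 0.189, 0.248 and 0.151 CPM in fibroblast-like cells (log2 9.27, adjusted p = 1.8e-08). Itga3 had 47.5, 43.4 and 34.3 CPM in blood endothelial-like cells and 0.0631, 0.0552 and 0.0604 CPM in fibroblast-like cells (log2 9.24, adjusted p = 3.8e-08). Each of these was near absent from fibroblast-like cells in all 3 libraries. Pecam1 had 1786, 1592 and 1523 CPM in blood endothelial-like cells and 2.29, 5.63 and 1.84 CPM in fibroblast-like cells (log2 8.91, adjusted p = 7.2e-07). Sele (log2 8.68), Itga6 (6.96), F11r (6.88), Itgb4 (5.68), Jam2 (3.98) and Itga2 (2.25) were also called higher. Itga1, with 311, 184 and 326 CPM in blood endothelial-like cells and 98.6, 114 and 94.5 CPM in fibroblast-like cells, was called at a log2 difference of 1.19 (adjusted p = 0.0018), and its call ended without replicate 3 (0.988).

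Itga11 had 0.863, 0.516 and 0.858 CPM in blood endothelial-like cells, against 64.7, 54.6 and 59.7 CPM in fibroblast-like cells (log2 -6.53, adjusted p = 1.0e-07). Itgb5 had 14.7, 6.97 and 24.9 CPM in blood endothelial-like cells and 196, 190 and 201 CPM in fibroblast-like cells (log2 -3.96, adjusted p = 9.2e-06). Fibroblast-like libraries thus held Itgb5 at nearly the same level while the endothelial-like ones varied. Itgb8 and Itgb6 gave 3 UMIs each in blood endothelial-like cells, ratios of 0.0505 (95% counting interval 0.0104 to 0.148) and 0.104 (0.0213 to 0.304) to fibroblast-like cells. The integrin ligands Vcam1 and Icam1, unlike Icam2, were present in both classes and were not called. Vcam1 had 187, 223 and 169 CPM in blood endothelial-like and 133, 156 and 143 CPM in fibroblast-like cells (log2 0.23, adjusted p = 0.082). Icam1 had 195, 252 and 179 CPM in blood endothelial-like and 108, 120 and 90.8 CPM in fibroblast-like cells (log2 0.78, adjusted p = 0.00024). It was higher in each endothelial-like library but under the threshold of size. Mural markers summed to between 157 and 773 CPM in blood endothelial-like cells; their part in the result was not tested.

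Among blood endothelial-like subclusters 1, 2, 3, 4 and 6, the selectins and the ligands Vcam1 and Icam1 followed the venular subclusters 2 and 3. Venular subclusters are those with markers of small veins, where leukocytes usually leave the blood. Subclusters 2 and 3 carried all 6 venular markers, subcluster 4 all 6 capillary markers and subcluster 6 all 6 arterial markers, while subcluster 1, led by Prnd and Esm1, held 5 venular, 4 capillary and 5 arterial markers and stayed unnamed. Selp averaged 3953 ± 566 CPM in subcluster 2 and 2404 ± 755 CPM in subcluster 3, against 295 CPM in subcluster 1, 25.1 CPM in subcluster 4 and 0 CPM in subcluster 6. The order of Vcam1 was 471 and 361 CPM in the venular-like subclusters 2 and 3, then 125, 56.2 and 42.5 CPM in subclusters 6, 1 and 4. The collagen and laminin receptors ran otherwise, with Itga1 at 891 ± 95.8 CPM in the capillary-like and 788 ± 165 CPM in the arterial-like subcluster, against 121 to 214 CPM in subclusters 1, 2 and 3. Itga6 was highest in the capillary-like subcluster at 1058 ± 415 CPM and Icam2 in the arterial-like one at 391 ± 41.8 CPM. A split by the highest of the venular, capillary and arterial scores, which put subcluster 1 and its venular score of 0.278 on the venular side, left subclusters 4, 6 and 7 with 4, 11 and 2 cells in replicate 2 on the other side, 17 in all, and was not tested.

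A test of venular-like subclusters 2 and 3 together against subcluster 1 was chosen after the data were seen. It had 54 to 82 cells against 36 to 77 cells per library. It left out subcluster 8, a set of 20 cycling cells with all 6 venular markers. Also left out were subclusters 0 and 5, with 246 and 69 cells and medians of 1278 and 2087 UMIs. Their venular scores of 0.432 and 0.575 exceeded their capillary and arterial scores, and their levels are not given here. Of 17 members that passed the filter on low counts, 5 were higher and 0 lower, and among all genes tested 4.36% were higher and 3.79% lower (8.15% in either direction). Selp had 3454, 3737 and 2648 CPM in subclusters 2 and 3, against 109, 418 and 357 CPM in subcluster 1 (log2 3.72 ± 0.31 SE, adjusted p = 4.9e-06). Sele had 439, 475 and 347 CPM in subclusters 2 and 3 and 43.2, 79.3 and 11.5 CPM in subcluster 1 (log2 3.28, adjusted p = 1.5e-06). Vcam1 had 440, 484 and 340 CPM in subclusters 2 and 3 and 52.7, 55.5 and 60.5 CPM in subcluster 1 (log2 3.04, adjusted p = 1.2e-07). No library of subcluster 1 reached any library of subclusters 2 and 3 for these genes. Icam1 had 386, 465 and 301 CPM in subclusters 2 and 3 and 99.4, 140 and 90.8 CPM in subcluster 1 (log2 1.90, adjusted p = 4.9e-07). The fifth was Itga2b, with 30.7, 32.8 and 26.9 CPM in subclusters 2 and 3 and 11.4, 8.81 and 10.1 CPM in subcluster 1 (log2 1.68, adjusted p = 0.00035). Pecam1, the general endothelial molecule, had 1915, 1639 and 1629 CPM in subclusters 2 and 3 and 1853, 1606 and 1674 CPM in subcluster 1 (log2 0.09, adjusted p = 0.53). In the lower direction 0 members were called by edgeR and 0 by DESeq2, and 4 had an unadjusted p under 0.05, among them Itga6 (log2 -0.70) and Jam3 (-0.93). With library totals in place of TMM scaling Jam3 was called lower (log2 -1.01), and without replicate 2 the count of members called lower was 1.

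**Figure D3:**
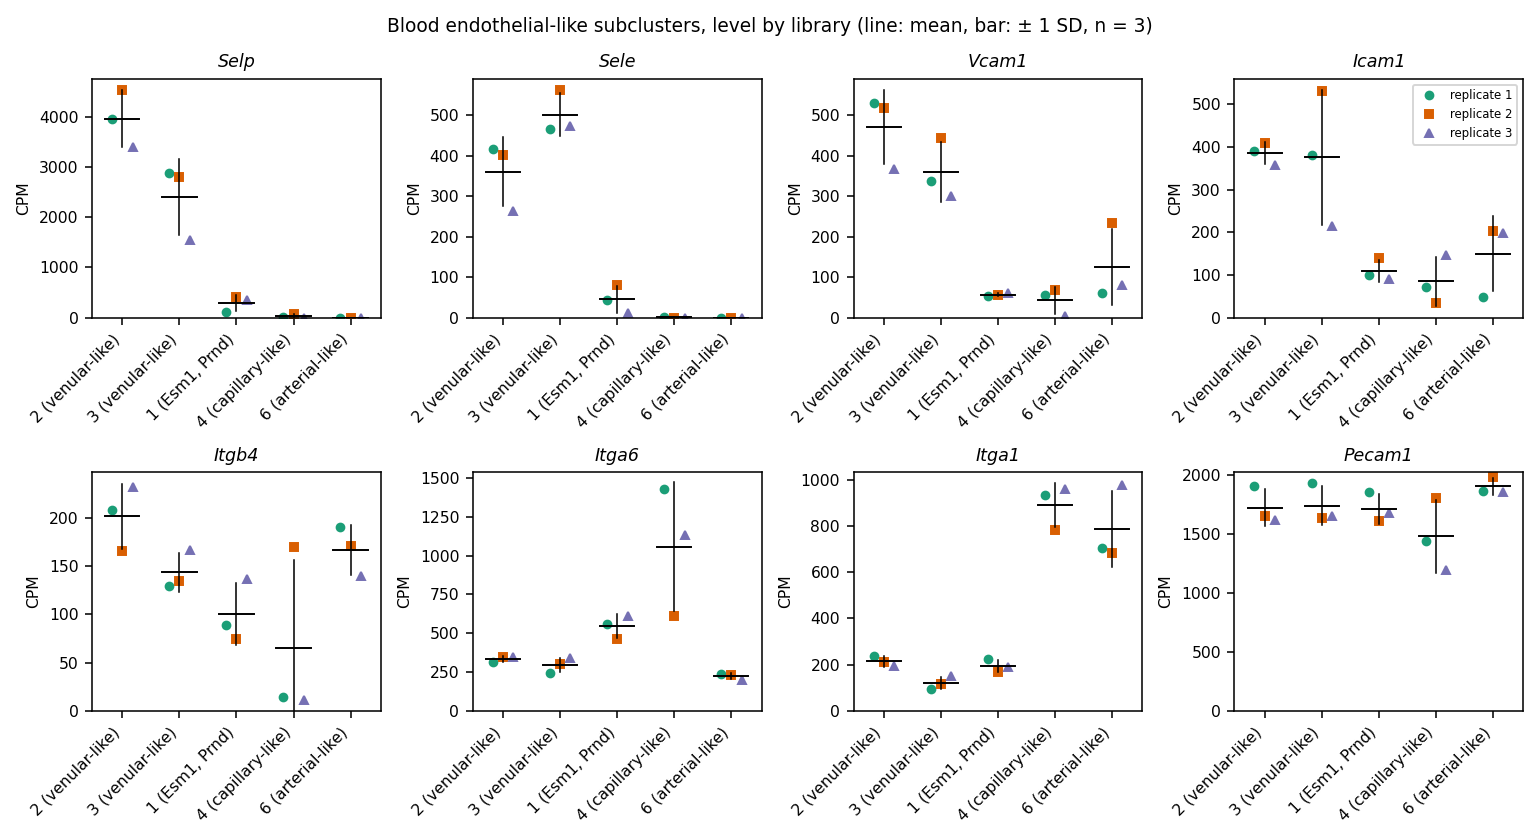
Level in CPM (vertical axes, linear from 0) of 8 members in 5 subclusters of blood endothelial-like cells; points are libraries, bars the mean and error bars the SD, cut at 0. Selp, Sele, Vcam1 and Icam1 are high in the venular-like subclusters 2 and 3, while Itga1 is high in the capillary-like subcluster 4 and the arterial-like subcluster 6.

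Lymphatic endothelial-like cells, which line lymph vessels, had less of most members than the blood vessel lining. Of the 19 members tested, 13 were called lower than in blood endothelial-like cells and 0 higher by edgeR, where 11.7% of all genes tested were lower and 9.76% higher (21.4% in either direction). F11r alone had an unadjusted p under 0.05 in the higher direction, and DESeq2 called 0 members higher. Jam2 had 1.16, 0.841 and 0 CPM in lymphatic endothelial-like cells, against 274, 260 and 272 CPM in blood endothelial-like cells (log2 -8.40 ± 0.27 SE, adjusted p = 9.5e-08). Itga2 gave 3 UMIs in lymphatic endothelial-like cells, a ratio of 0.0134 (95% counting interval 0.00276 to 0.0395) to blood endothelial-like cells. Sele had 7.54, 0.420 and 0 CPM in lymphatic endothelial-like cells and 173, 219 and 151 CPM in blood endothelial-like cells (log2 -6.13, adjusted p = 8.5e-06). The residual E-selectin thus came mainly from replicate 1, and the log2 difference was -9.24 without it. Selp had a like split, with 93.4, 4.20 and 4.59 CPM in lymphatic endothelial-like cells and 1258, 1594 and 1250 CPM in blood endothelial-like cells (log2 -5.84, adjusted p = 0.00023, and -8.44 without replicate 1). Vcam1 (log2 -5.82), Itga7, Itga3, Jam3, Itga2b, Itgb5, Pecam1, Itga1 and Icam2 were called lower as well, the call of Itgb5 ending without replicate 1 or 3 and that of Itga7 under DESeq2's test (adjusted p = 0.11). F11r, the highest junctional molecule of this class, had 442, 419 and 471 CPM in lymphatic endothelial-like cells and 304, 307 and 280 CPM in blood endothelial-like cells, and its log2 difference of 0.53 (adjusted p = 0.004) was under the threshold of size. Itgb4 (log2 -0.19, adjusted p = 0.36) and Icam1 (-0.15, adjusted p = 0.45) were not called. The 12 members not tested were the leukocyte chains Itgae, Itgal, Itgam, Itgax, Itgb2 and Itgb7, with Itga8, Itga10, Itga11, Itgb6, Itgb8 and Selplg.

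Mural-like cells held the laminin receptor Itga7, the collagen receptor Itga1 and Itga8 well above fibroblast-like cells, and less of Itga11, Itga2b, Itga5 and Vcam1. All 31 members were tested, and 11 were higher and 7 lower, where 11.5% of all genes tested were higher and 13.7% lower (25.2% in either direction). Itga7 had 226, 191 and 164 CPM in mural-like cells, against 1.46, 1.46 and 1.15 CPM in fibroblast-like cells (log2 6.95 ± 0.14 SE, adjusted p = 2.5e-16). Itga3 had 7.34, 8.91 and 9.40 CPM in mural-like cells and 0.0631, 0.0552 and 0.0604 CPM in fibroblast-like cells (log2 6.92, adjusted p = 6.9e-08). Itga8 had 69.5, 59.6 and 106 CPM in mural-like cells and 1.01, 1.08 and 2.62 CPM in fibroblast-like cells (log2 5.51, adjusted p = 9.1e-14). In each of them the lowest mural-like library exceeded the highest fibroblast-like one many times over. Itga1 had 936, 1070 and 1048 CPM in mural-like cells and 98.6, 114 and 94.5 CPM in fibroblast-like cells (log2 3.12, adjusted p = 5.0e-13). Jam3, which is found in vessel wall and stroma, had 76.1, 85.8 and 78.5 CPM in mural-like cells and 26.2, 24.6 and 26.7 CPM in fibroblast-like cells (log2 1.44, adjusted p = 3.8e-08). Itgb1 was called at 1.04 (adjusted p = 3.1e-07), and its call ended without replicate 1 (0.997) and with no filter on low counts (0.995).

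The members Icam2, Pecam1, Itga3, Itga6 and F11r, each highest in blood or lymphatic endothelial-like cells, were among those called higher in mural-like cells. Icam2 had 16.7, 4.69 and 10.1 CPM in mural-like cells, against 0.189, 0.248 and 0.151 CPM in fibroblast-like cells (log2 5.36, adjusted p = 9.3e-07). The summed level of 9 blood endothelial markers was 445 to 745 CPM in mural-like and 73.6 to 86.8 CPM in fibroblast-like cells, and 5998 to 6826 CPM in blood endothelial-like cells themselves; their part in these calls was not tested. Of the members called lower, Itga11 had 17.4, 20.2 and 8.73 CPM in mural-like cells and 64.7, 54.6 and 59.7 CPM in fibroblast-like cells (log2 -2.11, adjusted p = 8.8e-08). Itga2b had 4.67, 4.69 and 6.04 CPM in mural-like cells and 18.9, 19.1 and 19.4 CPM in fibroblast-like cells (log2 -2.11, adjusted p = 1.3e-06). Itgb7 had 0.668, 1.41 and 2.01 CPM in mural-like cells and 3.48, 5.59 and 7.11 CPM in fibroblast-like cells (log2 -2.19, adjusted p = 0.00095). Itgb6 gave 2 UMIs in mural-like cells, a ratio of 0.146 (95% counting interval 0.0177 to 0.530), and its call ended without the block (adjusted p = 0.083). Vcam1 was called at -1.19, which was -0.99 with library totals in place of TMM scaling.

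The next 5 comparisons set an immune-like class against macrophage-like cells and so share the macrophage-like sums: calls that recur among them are not independent. Neutrophil-like cells had more ICAM-1, CD11a and PSGL-1 transcript and less of Itgb5, Itga1 and F11r than macrophage-like cells. The median depth was 5107 UMIs per neutrophil-like cell and 14584 UMIs per macrophage-like cell. With library totals in place of TMM scaling the median of all genes moved by -0.764, so log2 differences here depend on the scale; among all called genes 41.4% were higher in neutrophil-like cells with TMM scaling and 23.3% with library totals. Of the 22 members tested, 9 were higher and 4 lower with TMM scaling, and 7 higher and 8 lower with library totals, where 24.9% of all genes tested were higher and 35.3% lower (60.2% in either direction) with TMM scaling.

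Icam1 had 360, 386 and 409 CPM in neutrophil-like cells, against 80.2, 87.3 and 74.8 CPM in macrophage-like cells (log2 3.01 ± 0.12 SE, adjusted p = 4.1e-19, and 2.25 with library totals). Itgal had 476, 481 and 512 CPM in neutrophil-like cells and 160, 170 and 160 CPM in macrophage-like cells (log2 2.34, adjusted p = 7.0e-17, and 1.58 with library totals). Selplg had 356, 277 and 254 CPM in neutrophil-like cells and 112, 98.8 and 120 CPM in macrophage-like cells (log2 2.18, adjusted p = 4.6e-15, and 1.43 with library totals). All 3 were higher in every library and called on both scales. Itgam had 794, 868 and 747 CPM in neutrophil-like cells and 605, 566 and 504 CPM in macrophage-like cells, and its log2 difference of 1.28 (adjusted p = 3.0e-11) was 0.52 with library totals and 0.97 with no filter on low counts, where the call ended. Its partner Itgb2 had 492, 483 and 470 CPM in neutrophil-like cells and 815, 836 and 755 CPM in macrophage-like cells, a log2 difference of 0.02 (adjusted p = 0.88) with TMM scaling and of -0.74 with library totals. Itgax, with 119, 121 and 166 CPM in neutrophil-like cells and 392, 362 and 379 CPM in macrophage-like cells, was at -0.75 and, with library totals, called lower at -1.51. Itga5, Itga6 and Itgb1 were likewise called lower with library totals only.

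Some calls higher in neutrophil-like cells rested on low counts. Selp had 19.0, 20.5 and 5.37 CPM in neutrophil-like cells and 1.18, 0.587 and 1.12 CPM in macrophage-like cells (log2 4.62, adjusted p = 6.6e-10). The 9 blood endothelial markers summed to 16.1 to 55.1 CPM in neutrophil-like cells and 30.3 to 40.4 CPM in macrophage-like cells, and 8 platelet markers, of which Gp9, Gp1bb, Gp6 and Treml1 were at 0 in neutrophil-like cells, summed to 47.3 to 60 CPM there and 1449 to 1660 CPM in macrophage-like cells; their part in the Selp call was not tested. Itgae (log2 3.14, adjusted p = 0.0015) had 2.09 ± 0.768 CPM in neutrophil-like and 0.346 ± 0.00773 CPM in macrophage-like cells, and Itga8 (log2 2.98, adjusted p = 0.0014) had 2.67 ± 2.42 and 0.559 ± 0.240 CPM in neutrophil-like and macrophage-like cells. Vcam1 was called at 1.77 but was above macrophage-like cells in 2 of 3 libraries, and its call ended without replicate 1 and with library totals. Of the members called lower, Itgb5 had 4.52, 12 and 7.52 CPM in neutrophil-like cells and 92.4, 85.6 and 106 CPM in macrophage-like cells (log2 -2.92, adjusted p = 5.7e-12). Itga1 had 3.87, 6.35 and 2.15 CPM in neutrophil-like cells and 25.4, 19.5 and 18.7 CPM in macrophage-like cells (log2 -1.62, adjusted p = 0.00012). F11r had 9.04, 14.1 and 4.30 CPM in neutrophil-like cells and 42.0, 39.4 and 33.2 CPM in macrophage-like cells (log2 -1.29, adjusted p = 3.9e-05). Itgb8 gave 2 UMIs in neutrophil-like cells, a ratio of 0.0796 (95% counting interval 0.00958 to 0.291), and its call ended without the block (adjusted p = 0.064).

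Monocyte-like cells, the blood-derived precursors of many macrophages, had more Itgb7 and Itga1 and less Itgax and Itgb2 than macrophage-like cells. Of 22 members tested, 6 were higher and 5 lower, where 9.60% of all genes tested were higher and 10.4% lower (20% in either direction). Itgb7 had 135, 120 and 96.6 CPM in monocyte-like cells, against 18.3, 17.9 and 16.6 CPM in macrophage-like cells (log2 2.76 ± 0.11 SE, adjusted p = 1.9e-08). Itga1 had 78.1, 103 and 58.5 CPM in monocyte-like cells and 25.4, 19.5 and 18.7 CPM in macrophage-like cells (log2 1.89, adjusted p = 1.2e-06). Itga8 (log2 3.27, adjusted p = 0.00011) and Pecam1 (log2 2.16, adjusted p = 1.7e-05) were higher at lower levels, 4.98 ± 1.14 and 21.8 ± 5.56 CPM in monocyte-like cells, against 0.559 ± 0.240 and 4.68 ± 1.12 CPM in macrophage-like cells. Itgax had 47.5, 49.4 and 76.6 CPM in monocyte-like cells and 392, 362 and 379 CPM in macrophage-like cells (log2 -2.73, adjusted p = 4.2e-08). Itgb2 had 409, 336 and 339 CPM in monocyte-like cells and 815, 836 and 755 CPM in macrophage-like cells (log2 -1.13, adjusted p = 3.0e-06). Both were lower in all 3 libraries, with no overlap. Itgam was close, with 546, 492 and 431 CPM in monocyte-like and 605, 566 and 504 CPM in macrophage-like cells (log2 -0.17, adjusted p = 0.12). Jam2 (log2 -3.06), Itga6 (-1.20) and Itgb8 (-1.86) were also lower, the call of Itga6 ending without replicate 3 (-0.992) and that of Itgb8 without replicate 2 and without the block. Neutrophil markers summed to 2280 to 8536 CPM in monocyte-like and 884 to 1039 CPM in macrophage-like cells; their part was not tested.

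The conventional dendritic cell-like classes both had more Itgb7 and less Itgax and Itgb2 than macrophage-like cells, while Itgae, high in cDC1-like cells, gave 1 UMI in cDC2-like cells and was not tested there. Among 21 members tested in cDC1-like cells, 7 were higher and 5 lower, where 11.5% of all genes tested were higher and 12.5% lower (24.1% in either direction). Itgae had 132, 76.1 and 70.7 CPM in cDC1-like cells, against 0.349, 0.352 and 0.337 CPM in macrophage-like cells (log2 7.99 ± 0.27 SE, adjusted p = 1.4e-08). Its partner Itgb7 had 219, 278 and 240 CPM in cDC1-like cells and 18.3, 17.9 and 16.6 CPM in macrophage-like cells (log2 3.72, adjusted p = 3.1e-08). Itga3 had 19.1, 27.3 and 18 CPM in cDC1-like cells and 3 UMIs in all macrophage-like cells, a ratio of 356 (95% counting interval 115 to 1780). Both CD103 chains were thus high in all 3 cDC1-like libraries. Itga8 (log2 4.40), Itga1 (2.79), Pecam1 (2.21) and Selplg (1.20) were also called higher. Itgam had 102, 93.2 and 115 CPM in cDC1-like cells and 605, 566 and 504 CPM in macrophage-like cells (log2 -2.50, adjusted p = 4.4e-07). Itgax had 107, 84.1 and 139 CPM in cDC1-like cells and 392, 362 and 379 CPM in macrophage-like cells (log2 -1.87, adjusted p = 4.5e-06). Itgb5 (log2 -1.72), Itgb2 (-1.60) and Itga5 (-1.49) were lower as well. Macrophage markers summed to 868 to 1285 CPM in cDC1-like and 3794 to 4713 CPM in macrophage-like cells.

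Among 19 members tested in cDC2-like cells, 3 were higher and 7 lower, where 10.7% of all genes tested were higher and 14.0% lower (24.7% in either direction). Itgb7 had 190, 208 and 180 CPM in cDC2-like cells, against 18.3, 17.9 and 16.6 CPM in macrophage-like cells (log2 3.36 ± 0.17 SE, adjusted p = 2.0e-13). Itgb2 had 217, 172 and 112 CPM in cDC2-like cells and 815, 836 and 755 CPM in macrophage-like cells (log2 -2.36, adjusted p = 3.6e-11). Itgax had 93.6, 102 and 107 CPM in cDC2-like cells and 392, 362 and 379 CPM in macrophage-like cells (log2 -2.0, adjusted p = 5.3e-10). The CD11c chain was thus lower in both dendritic classes than in macrophage-like cells of the same libraries. Itgb5 had 4.93, 17.4 and 9.11 CPM in cDC2-like cells and 92.4, 85.6 and 106 CPM in macrophage-like cells (log2 -3.39, adjusted p = 3.8e-09). Pecam1 (log2 2.17) was higher, and Itgam (-1.59) and Itgal (-1.58) were lower. The calls of Selp (log2 2.88), Itga6 (-1.07) and Jam2 (0 UMIs in cDC2-like cells, at least 2.72-fold lower against a floor of 3 UMIs over the class) each ended without 1 of the libraries: Selp without replicate 2, Itga6 without replicate 1 or 3 and Jam2 without replicate 1.

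The T- and NK-like class carried 827 to 921 CPM of T cell markers, beside 2070 to 2982 CPM of macrophage and 4577 to 7659 CPM of neutrophil markers, and its levels are those of a mixture. Of 25 members tested, 8 were higher and 5 lower than in macrophage-like cells, where 15% of all genes tested were higher and 6.45% lower (21.4% in either direction). Subclusters 4, 5 and 6 of the class, with 28 to 39 cells per library and led by genes such as Trat1, Gzma and Klrg1, were therefore set against macrophage-like cells after the data were seen. Subcluster 5 was highest for NK cell markers (4855 CPM). Subclusters 4 and 6 held 3598 and 4783 CPM of innate lymphoid markers, beside 3578 and 2533 CPM of T cell markers. The sum of these subclusters does not tell which type of lymphocyte carried a member. Of 21 members tested there, 8 were higher and 8 lower, where 14.4% of all genes tested were higher and 20.1% lower (34.5% in either direction). The median of all genes moved by 0.364 with library totals in place of TMM scaling, and 58.4% instead of 41.8% of all called genes were then higher; for the whole class these were 0.188, 81.5% and 69.9%.

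Itga2, the collagen receptor known as CD49b on NK cells, had 151, 29.7 and 97.6 CPM in the sum of lymphocyte subclusters 4, 5 and 6, against 0.393, 0.704 and 0.337 CPM in macrophage-like cells (log2 7.34 ± 0.53 SE, adjusted p = 6.1e-18). Itgae had 105, 40.9 and 59.4 CPM in these subclusters and 0.349, 0.352 and 0.337 CPM in macrophage-like cells (log2 7.26, adjusted p = 3.1e-16). Pecam1 had 244, 119 and 272 CPM in these subclusters and 5.94, 4.34 and 3.77 CPM in macrophage-like cells (log2 5.11, adjusted p = 2.1e-22). These genes were lowest in replicate 2 among the lymphocyte sums yet far above macrophage-like cells in each library. Itgb7 had 254, 264 and 263 CPM in these subclusters and 18.3, 17.9 and 16.6 CPM in macrophage-like cells (log2 3.52, adjusted p = 7.8e-19). In the whole T- and NK-like class the same members were called with log2 differences of 6.21 for Itga2, 6.12 for Itgae, 3.98 for Pecam1 and 2.74 for Itgb7.

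Itgb8, a chain that frees TGF-beta, had 28.7, 74.3 and 140 CPM in the sum of lymphocyte subclusters 4, 5 and 6 and 3.23, 11.7 and 2.98 CPM in macrophage-like cells (log2 3.45, adjusted p = 1.5e-09). Itgax had 31.1, 48.3 and 8.49 CPM in these subclusters and 392, 362 and 379 CPM in macrophage-like cells (log2 -4.04, adjusted p = 2.2e-17). Itgb5 had 2.39, 11.1 and 4.24 CPM in these subclusters and 92.4, 85.6 and 106 CPM in macrophage-like cells (log2 -4.46, adjusted p = 2.0e-12). Myeloid chains were thus low in the lymphocyte sums: Itgam (log2 -3.88), Itga5 (-3.30) and Itgb2 (-2.41) were also called. F11r had 0 UMIs there and was at least 11.8-fold lower against a floor of 3 UMIs over the subclusters, and Jam2 and Vcam1, also at 0, were at least 1.47-fold and 1.09-fold lower. The calls of Jam2 and Vcam1 both ended without any 1 of the replicates and under DESeq2's test (adjusted p = 0.11 and 0.18), and with a library left out 6 members were called lower and 6 to 7 higher. In the whole class Itgam (-1.15), Itga5 (-1.10), Itgb2 (-1.48), Itgax (-1.78) and Jam2 (-2.01) were called lower, and the calls of Itgam and Itga5 ended with library totals.

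Fibroblast-like cells fell into 10 subclusters large enough to test, each set against the equally weighted mean of the log levels of the others. The CPM given beside it for the others are the equally weighted mean of their CPM in the same library. Of the 31 members 28 were tested, and Itga3, Icam2 and Selp were not. Subcluster 4, with 1044 cells led by Spp1, Cxcl5 and Mmp13, had more Itga1 and Itga10 and less Itga11. It had 5 members higher and 4 lower, where 7.83% of all genes tested were higher and 8.91% lower (16.7% in either direction). Itga1 had 328, 375 and 303 CPM in subcluster 4, against 56.4, 60.6 and 59.5 CPM in the others (log2 2.97 ± 0.10 SE, adjusted p = 2.5e-19). Itga10 had 23.9, 18.2 and 24.8 CPM in subcluster 4 and 4.97, 4.95 and 4.63 CPM in the others (log2 2.76, adjusted p = 5.5e-17). Itga11 had 8.08, 9.02 and 9.43 CPM in subcluster 4 and 82.5, 71.7 and 72.9 CPM in the others (log2 -2.75, adjusted p = 2.1e-14). For these genes no library of subcluster 4 overlapped the mean of the others. Single subclusters could still be alike: Itga11 was lower still in subcluster 8, described below, with overlapping libraries. F11r, Itgb8 and Itga6 were higher (log2 1.92, 1.59 and 1.59), and Itga8, Jam2 and Itgb7 lower (-4.30, -1.94 and -1.29). The call of Itga8 ended without replicate 2 (adjusted p = 1.0), and that of Itgb7 without replicate 1 (log2 -0.992) or 2 (adjusted p = 0.9993).

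Subcluster 0, with 1658 cells led by Sema3c, Opcml and Limch1, ran the other way. It had 4 members higher and 7 lower, where 6.66% of all genes tested were higher and 9.35% lower (16.0% in either direction). Itga1 had 4.96, 6.08 and 3.59 CPM in subcluster 0, against 92.2, 102 and 92.8 CPM in the others (log2 -3.59 ± 0.19 SE, adjusted p = 5.4e-15). Itga11 had 114, 108 and 126 CPM in subcluster 0 and 70.7, 60.7 and 60 CPM in the others (log2 1.53, adjusted p = 6.2e-13). Vcam1 had 24.0, 24.2 and 19.0 CPM in subcluster 0 and 131, 162 and 141 CPM in the others (log2 -2.52, adjusted p = 4.4e-14). A leukocyte chain stood out here: Itgb7 had 16.6, 35.8 and 42.1 CPM in subcluster 0 and 2.07, 1.5 and 1.27 CPM in the others (log2 4.82, adjusted p = 7.4e-18), while Itgae, with which it pairs, was not called. Itga2 (log2 1.63) and Itgb6 (1.22) were also higher, and Itgb8 (-2.86), Itga8 (-2.64), Itga7 (-2.48), F11r (-1.97) and Itga10 (-1.83) lower. The call of Itga8 ended without any 1 of the replicates (adjusted p = 0.16 without replicate 1, 1.0 without replicate 2 and 0.099 without replicate 3) and without the library block (0.055).

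Vcam1 and Icam1 were called higher in subcluster 2, led by Saa3, Mmp3 and Cxcl12. In subcluster 6, led by the interferon-induced genes Cxcl10 and Rsad2, Icam1 was called higher and Vcam1 was not called. In subcluster 2, where 2 members were higher and 3 lower and 4.55% of all genes tested were higher and 2.47% lower (7.02% in either direction), Vcam1 had 210, 244 and 267 CPM, against 110, 137 and 114 CPM in the others (log2 1.34, adjusted p = 3.0e-11). Icam1 had 166, 203 and 163 CPM in subcluster 2 and 107, 117 and 86.2 CPM in the others (log2 1.01, adjusted p = 3.1e-09), and its call ended with library totals (log2 0.90), with DESeq2 size factors, without replicate 2 (0.98) or 3 (0.93) and without subcluster 9 (0.91). In subcluster 6, where 2 members were higher and 1 lower and 6.47% of all genes were higher and 1.79% lower (8.25% in either direction), Icam1 had 162, 198 and 200 CPM, against 107, 118 and 82.2 CPM in the others (log2 1.09, adjusted p = 1.5e-09), and its call ended with library totals (log2 0.994), without replicate 3 (0.89) and without subcluster 9 (0.998). Subcluster 5, led by Bmp5 and Abca8a, had 8 members higher and 2 lower, where 10.2% of all genes tested were higher and 5.93% lower (16.2% in either direction). Itga8 had 12.4, 13.8 and 16.0 CPM in subcluster 5 and 0.679, 0.617 and 1.57 CPM in the others (log2 4.61, adjusted p = 3.0e-09). Itga6 had 10.2, 9.52 and 11.2 CPM in subcluster 5 and 1.23, 1.47 and 1.33 CPM in the others (log2 3.40, adjusted p = 3.4e-11). Cycling cells of subcluster 8, led by Top2a and Mki67, had more Itga1 and less Itga11, with Itga1 at 208, 228 and 206 CPM against 69.7, 76.9 and 70.3 CPM in the others (log2 2.19, adjusted p = 8.9e-16) and Itga11 at 1.5, 6.52 and 8.57 CPM against 83.2, 72.0 and 73.0 CPM in the others (log2 -3.56, adjusted p = 2.8e-14); 5 members were higher and 3 lower there, and 10.6% and 9.22% of all genes (19.8% in either direction).

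In subcluster 1 (3 higher and 3 lower, 4.78% and 3.98% of all genes, 8.76% in either direction), Itga10 was higher at 16.1 ± 0.609 CPM, against 5.54 ± 0.399 CPM in the others (log2 2.35), and Itga11 lower (-1.47). In subcluster 3 (3 higher and 2 lower, 4.68% and 2.41% of all genes, 7.09% in either direction), Itga11 (log2 1.5) and Jam2 (1.21) were higher in all 3 libraries. In subcluster 7 the 8 members called were lower, all of low level, where 10.9% of all genes were lower, 3.68% higher and 14.6% called in either direction. Subcluster 9 (10 higher and 1 lower, 7.21% and 0.781% of all genes, 7.99% in either direction) was led by S100a8, Lyz2 and Cd74, genes of leukocytes, and 6 of its 10 members called higher were Itgal, Itgam, Itgax, Itgb2, Itgb7 and Selplg. Macrophage markers summed to 222 to 317 CPM in subcluster 9; their part in those calls was not tested.

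**Figure D4:**
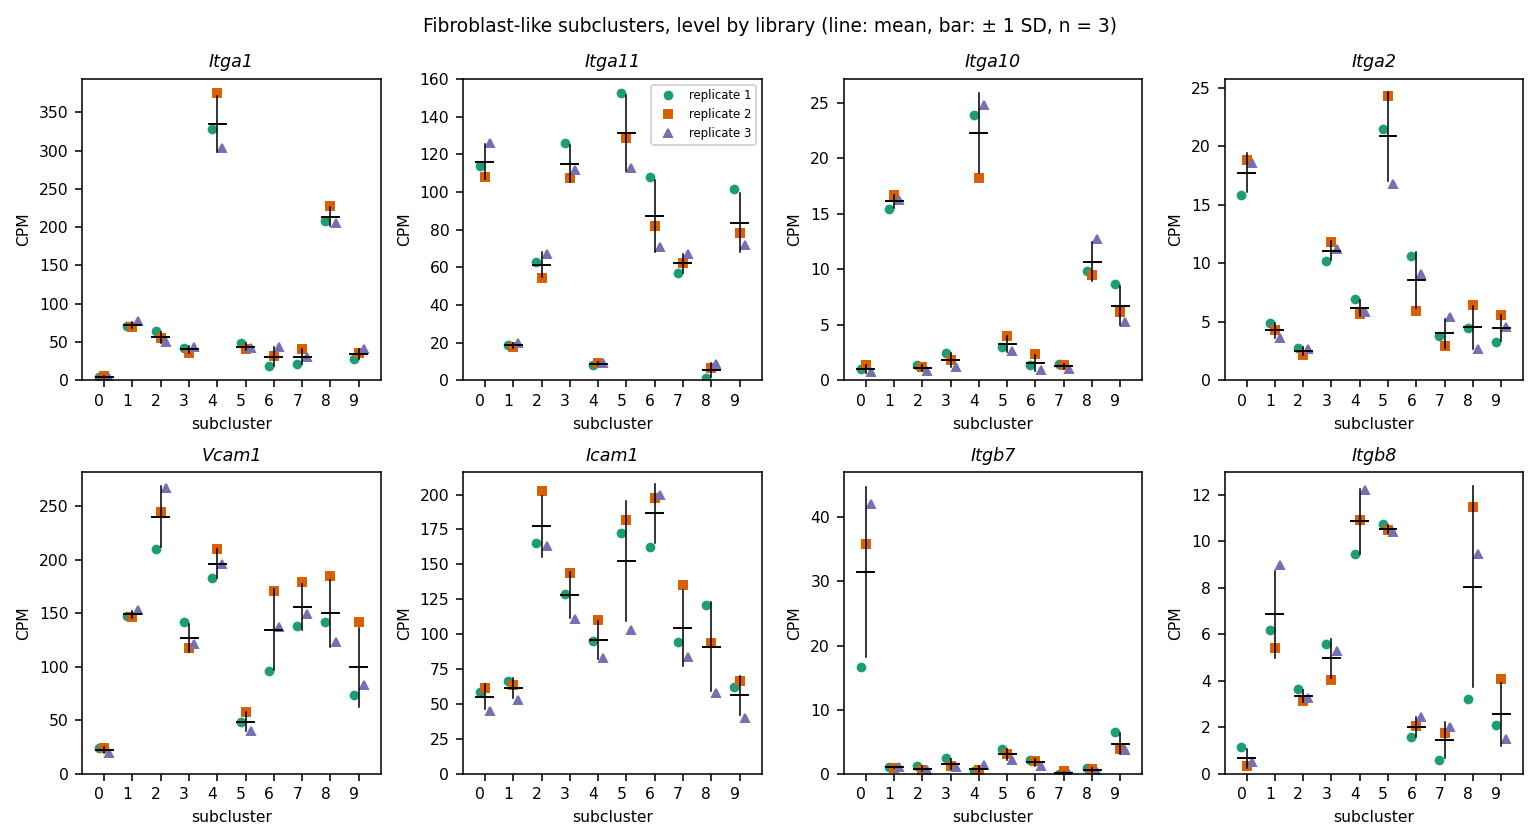
Level in CPM (vertical axes, linear from 0) of 8 members in fibroblast-like subclusters 0 to 9; points are libraries, bars the mean and error bars the SD, cut at 0. Itga1 is at 335 CPM in subcluster 4 and 214 CPM in subcluster 8, where Itga11 is at 8.84 and 5.53 CPM; Itgb7 stands at 31.5 CPM in subcluster 0.

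Macrophage-like cells were compared likewise, with 17 members tested in 7 subclusters. Subcluster 3, with 386 cells led by Pdgfc and F13a1, had less Itgax, Itgal and Itgb2 and more Itga6 and Itgb5, while Itgam (log2 -0.34) was not called. It had 3 members higher and 3 lower, where 4.10% of all genes tested were higher and 2.48% lower (6.58% in either direction). Itgax had 149, 87.6 and 165 CPM in subcluster 3, against 383, 368 and 403 CPM in the others (log2 -1.47 ± 0.10 SE, adjusted p = 2.9e-12). Itgal had 90.0, 77.4 and 82.3 CPM in subcluster 3 and 166, 186 and 188 CPM in the others (log2 -1.11, adjusted p = 7.5e-10). Itgb2 had 471, 368 and 408 CPM in subcluster 3 and 827, 860 and 822 CPM in the others (log2 -1.03, adjusted p = 3.1e-11), and its call ended with library totals (-0.96) and without replicate 2 (-0.95). All 3 leukocyte chains were lower in each library, without overlap with the mean of the others. Itga6 had 46.1, 49.9 and 38.1 CPM in subcluster 3 and 18.5, 14.2 and 11.8 CPM in the others (log2 1.60, adjusted p = 4.4e-09). Itgb5 had 189, 175 and 198 CPM in subcluster 3 and 99.9, 89.3 and 100.1 CPM in the others (log2 1.02, adjusted p = 4.6e-11), and Pecam1 was higher at 1.60 (adjusted p = 0.00016).

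Subcluster 1, led by Ocstamp and Mmp12, had 2 members higher and 3 lower, where 1.54% and 3.64% of all genes were called (5.18% in either direction). Itgb5 had 48.8, 51.2 and 49.9 CPM in subcluster 1, against 123, 110 and 125 CPM in the others (log2 -1.13, adjusted p = 2.8e-10). Itga6 (log2 -1.30, adjusted p = 1.2e-05) was lower there as well, the reverse of subcluster 3 for both genes. In subcluster 0, led by Ccl24 (2 members higher, where 2.07% of all genes were higher, 4.87% lower and 6.94% either), Itgb8 had 7.25, 40.2 and 8.73 CPM, against 1.80, 2.81 and 1.42 CPM in the others (log2 3.52, adjusted p = 1.9e-08), with replicate 2 well above the other libraries. Itga1 had 38.6, 35.8 and 34.9 CPM in subcluster 0 and 20.5, 14.2 and 14.9 CPM in the others (log2 1.20, adjusted p = 1.6e-07). In subcluster 5 Itga1 (log2 -2.06, adjusted p = 1.2e-05) and Itgb8, at 0 UMIs there, were lower, where 4.59% of all genes were lower and 8.18% called in either direction. In subcluster 2 Jam2 was higher (log2 1.42), where 3.27% of all genes were higher, and in subcluster 4 Vcam1 (-1.32) and Pecam1 (-1.85) were lower, where 1.21% of all genes were lower. These calls were unsteady: that of Vcam1 ended without any 1 of the replicates, under DESeq2's test (adjusted p = 0.055) and without the block (0.053), that of Pecam1 without replicate 1 (0.19) or 3 (0.096), that of Jam2 without replicate 3 (0.16), and that of Itgb8 in subcluster 5 without replicate 1 (0.066) or 3 (0.074) and without the block (0.052). Subcluster 6, with 139 cells led by S100a9 and S100a8, gave no call by edgeR, and 6 members higher and 3 lower had an unadjusted p under 0.05, where 5.32% of all genes were called higher, 0.257% lower and 5.58% in either direction. Without replicate 1 the members called lower over the 7 subclusters were 6, against 10 with all libraries.

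**Figure D5:**
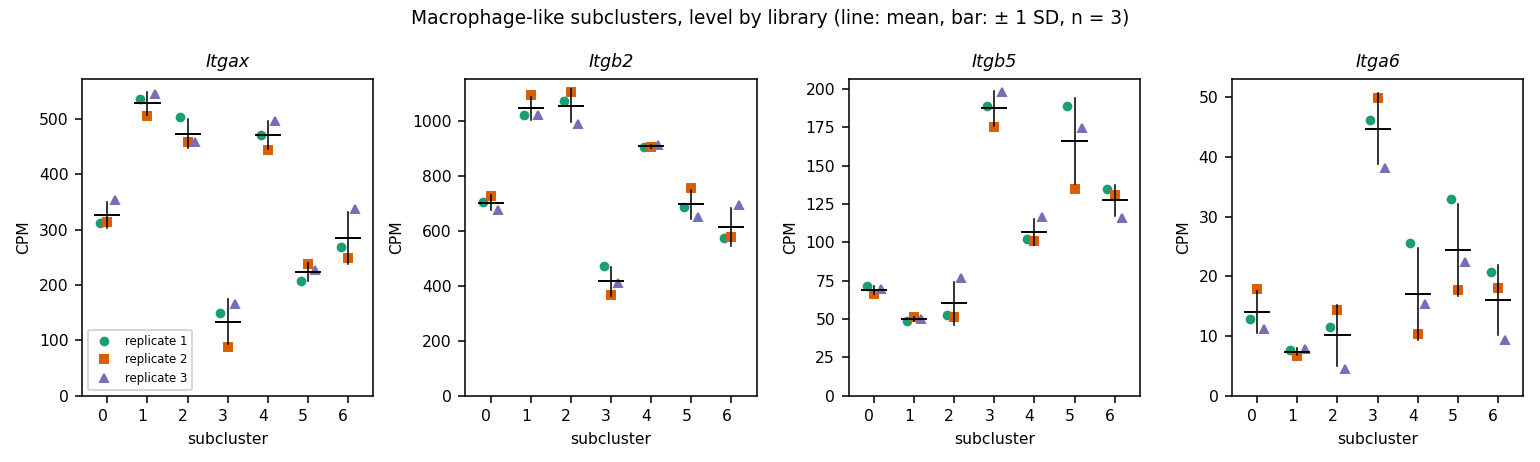
Level in CPM (vertical axes, linear from 0) of 4 members in macrophage-like subclusters 0 to 6; points are libraries, bars the mean and error bars the SD, cut at 0. Subcluster 3 has 416 CPM of Itgb2, against 836 CPM in the mean of the other subclusters, and 44.7 CPM of Itga6, against 14.8 CPM in that mean.

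The other genes of adhesion, from lists of integrin adaptors and activators (33 genes), makers of selectin ligands (11) and further adhesion receptors (25, of which Cd99 had no row), were tested in the same fits. In immune-like against stromal-like cells, 15 of 32 adaptors tested were higher and 8 lower, where 19.9% of all genes were higher and 29.7% lower. The Src-family kinase Fgr (249 ± 26.0 CPM in immune-like cells, 1.08 CPM in stromal-like cells, log2 8.04) was highest, and Tln2, talin 2 (1.24 CPM in immune-like cells, 148 CPM in stromal-like cells, log2 -6.91), and Fermt2, kindlin 2 (log2 -6.59), were lowest. Of 10 ligand makers tested, 3 were higher and 2 lower, and Fut7, the fucosyltransferase that finishes sialyl Lewis x, had 3.73 CPM in immune-like cells, against 0.0353 CPM in stromal-like cells (log2 6.53). In neutrophil-like against macrophage-like cells, the sialyltransferase St3gal6 stood out among the ligand makers, with 399 CPM in neutrophil-like and 7.07 CPM in macrophage-like cells (log2 6.55).

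In blood endothelial-like against fibroblast-like cells, where 13.0% of all genes were higher and 20.1% lower, 8 of 32 adaptors were higher and 6 lower. The adaptors were led by Parvb, beta-parvin (204 CPM in blood endothelial-like and 0.971 CPM in fibroblast-like cells, log2 7.57). Of 10 ligand makers 5 were higher and 2 lower, with St3gal6 at 120 CPM in blood endothelial-like and 3.38 CPM in fibroblast-like cells (log2 4.95). Of 24 other receptors 8 were higher and 6 lower, led by Cdh5, VE-cadherin (log2 10.25), and Podxl, podocalyxin (10.11), with Cdh11, the fibroblast cadherin (-6.90), and Emb (-6.01) lowest. In mural-like against fibroblast-like cells, where 11.5% of all genes were higher and 13.7% lower, 9 of 31 adaptors were higher and 6 lower. The other receptors had 8 of 24 higher and 6 lower. Among them Mcam, a vessel wall receptor, was at 382 CPM in mural-like and 1.19 CPM in fibroblast-like cells (log2 8.13). In lymphatic against blood endothelial-like cells, where 9.76% of all genes were higher and 11.7% lower, 4 of 20 other receptors were higher and 5 lower. Thy1 was at 504 CPM in lymphatic and 9.50 CPM in blood endothelial-like cells (log2 5.79).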

How the data were processed

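The deposited matrices hold whole-number UMI counts per gene and cell, made by the authors with 10x Genomics 3′ chemistry and Cell Ranger (version 6.1.2 per the submitters' processing notes, cellranger 7.0.0 per the file headers). No source used here names the genome build or gene models, or says if reads in introns entered the counts, which would raise the counts of genes with long introns. Gene names are those paired with the IDs in the deposited files, and 32158 of the 32285 IDs are also in the gene name table of the reference. All 3 libraries were used, 0 columns of other samples were present, and the libraries' counts differed by more than sampling noise.

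Cells with under 500 UMIs, under 200 genes or over 20% mitochondrial UMIs were removed (132, 369 and 207 barcodes in replicates 1, 2 and 3). The doublet caller's own threshold marked 71, 142 and 30 barcodes, and a share that grew with the number of barcodes was removed in its place, the 295, 598 and 200 barcodes with the highest doublet scores (4.86%, 6.92% and 4.00%). Cells were clustered with scanpy 1.11.5 and leidenalg 0.10.2 (2000 variable genes, 30 components, resolution 1). Larger clusters that stayed unnamed were then divided again, which gave 59 clusters in all. UMIs were summed per class and library, and a class was compared where it had at least 20 cells in every library.

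Sums were tested with edgeR 4.0.16 (filterByExpr, TMM scaling, quasi-likelihood test, Benjamini-Hochberg adjustment over all genes tested) in R 4.3.3. Each class of a pair comes from the same 3 libraries, so the library was a block. Subclusters were tested against the equally weighted mean of the logs of the others. The CPM printed use plain totals. Alternatives were DESeq2 1.42.0 size factors and its own test, plain totals, no filter on low counts, no block, stricter cell and doublet filters, each replicate left out, every class weighted equally (limma 3.58.1 on log2 of CPM + 1), and, chosen after seeing the data, doubtful clusters left out and the venular and lymphocyte divisions.

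The test was tried on simulated data with 200 changed genes, as many up as down. All other genes had the same mean profile on both sides, and all genes a common dispersion. The trial thus cannot show how the test fares where the result depends on scaling, as in the real neutrophil-like comparison. For neutrophil-like against macrophage-like cells (11617 genes) it recovered 100%, 90%, 100% and 100% of the genes changed by log2 -2, -1.5, 1.5 and 2, with 4 false calls among 11417 unchanged genes. For fibroblast subcluster 0 (14091 genes) it recovered 100% of each size with 0 false calls among 13891.

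All 31 members are named with their levels. Values in every library are given for up to 4 called members a direction with the largest differences in a comparison, and for members that turned out most abundant in a class. The members, the gene lists and the marker lists were chosen with earlier results of these data known. Of the 3 other gene lists, 33 genes are integrin adaptors, 11 are enzymes that build selectin ligands and 25 are other adhesion genes. The precision of a level is limited by counting at low UMIs, and intervals for pooled classes are exact 95% Poisson intervals that cover counting error only.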

Additional observations from a re-analysis of the deposited data

How the results depend on the processing

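For F11r the direction turned when every class was weighted equally in immune-like against stromal-like cells (log2 -2.27). Without the filter on low counts, 1 member was called higher in lymphatic endothelial-like cells and 7 lower in neutrophil-like cells; with plain library totals 8 were lower in neutrophil-like cells, 3 in T- and NK-like cells and 1 in venular cells. With 1 replicate left out, 0 to 1 members were lower in venular cells, and the calls summed over macrophage subclusters were 6 to 9 lower; the other counts moved by at most 1.5 times, for example 40 to 42 higher and 25 to 30 lower over fibroblast subclusters. The class with the highest level stayed the same for 28 to 30 of the 31 members. Of the recomputed differences and counts, 332 of 353 kept their direction and side of the threshold with library totals, 342 of 353 without the filter, 343 of 352 under DESeq2's test, 340 of 349 with doublet removal doubled, and 317 of 344, 324 of 350 and 319 of 348 without replicates 1, 2 and 3.

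The library was a block because both sides of each comparison came from the same libraries. Without the block immune-like cells had 7 members higher and 16 lower, and the counts were 11 and 6 in blood endothelial-like, 0 and 12 in lymphatic endothelial-like, 11 and 6 in mural-like, 7 and 3 in neutrophil-like, 5 and 4 in monocyte-like, 7 and 5 in cDC1-like, 3 and 7 in cDC2-like, 8 and 5 in T- and NK-like, 5 and 0 in venular cells, 8 and 8 in the lymphocyte subclusters, 41 and 32 over fibroblast subclusters and 7 and 8 over macrophage subclusters. The reasons for these changes were not tested, and the shares of all genes called without the block are not given here. Classes with few cells, such as the 94 cDC2-like cells, leave members of low level untested. The planned division into venular and other blood endothelial-like cells was not run as first written, since 1 side had 17 cells in replicate 2.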

Other observations

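Classes with too few cells for a test still held members at high levels, given here as sums over the 3 libraries with exact 95% Poisson intervals. The 52 satellite cell or myoblast-like cells, the stem and precursor cells of muscle fibres, had 459 UMIs of Vcam1, or 772 CPM (703 to 846), with at least 1 UMI in 96.2% of the cells. The 31 Schwann cell-like cells, which ensheath nerves, had 164 UMIs of Itgb8, or 402 CPM (343 to 468), and 117 UMIs of Itga1, or 287 CPM (237 to 344). In the 26 basophil-like cells Itga2b gave 45 UMIs, or 259 CPM (189 to 346), and in the 32 mast cell-like cells it gave 21 UMIs, or 124 CPM (76.7 to 189). Of the basophil-like UMIs of Itga2b, 34 came from replicate 2, which also held 17 of the 26 cells.

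The 39 plasmacytoid dendritic cell-like cells had 246 UMIs of Selplg, or 389 CPM (342 to 440), and the 78 migratory dendritic cell-like cells had 509, or 362 CPM (331 to 395). Fibroblast subcluster 10 held 17 cells, led by Sfrp5, Tenm2, Lypd2, Hcn4 and Cldn1, and was left out of the tests. Whether these cells are fibroblasts was not tested. In subcluster 10 Itga6 gave 389 UMIs, or 1522 CPM (1375 to 1681). Itgb4, which pairs with Itga6 in the attachments of epithelia, gave 261 UMIs, or 1021 CPM (901 to 1153). All 17 cells, which came from the 3 libraries, had at least 1 UMI of both genes. Both levels were above those of each of the 12 classes in the comparisons.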
